A study of Mus musculus with 15 samples.

Results

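The epithelium of the mouse small intestine after 3 days of RANKL was compared with the same tissue after 1 day of RANKL, on 3 arrays for each day. These 6 arrays were chosen by their labelled time point and are 6 of the 15 in the series. The day 3 and day 1 mice were wild-type BALB/c, 10 weeks of age, and received a fusion of glutathione S-transferase (GST) with RANKL by intraperitoneal injection, 2 times a day. Both groups therefore carried the same agent and differed in how long it was given. The other 9 arrays come from controls and from mice given the fusion protein for 2 or 4 days. Their means are printed beside some genes as levels, and no test was made against them. No group given GST alone is among the samples. Epithelial cells were detached from the small intestine by 10 min in 30 mM EDTA and peeled away, and their total RNA was hybridised to Affymetrix whole-transcript arrays. The labels do not tell whether each array stands for its own mouse, and the p-values therefore measure only how these samples spread.

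RANKL is a cytokine of the TNF family that binds the receptor RANK, encoded by Tnfrsf11a. RANK signals through TRAF adaptor proteins to both branches of the NF-kB pathway, and the alternative branch works through the subunits p52, made from Nfkb2, and RelB. In the intestine RANKL comes from stromal cells below lymphoid follicles and turns crypt-derived epithelial cells into M cells, which carry luminal antigens to the lymphoid tissue. Injected RANKL makes M cells appear on ordinary villi as well. Spib encodes a transcription factor needed for M cell maturation, and Gp2 encodes a receptor for bacterial fimbriae on the surface of mature M cells.

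The promoters of 3 genes that carry the comparison are shown first. Nfkb2 is the precursor of p52 and was lower on day 3, and Gp2 and Hamp, which encodes the iron hormone hepcidin, were among the genes with the largest rises. Each sequence is the 250 bases before a transcription start in RefSeq on mouse build GRCm38.p6, written on the gene's strand. Nfkb2 has 3 such windows, and the first is printed. The second held none of the 4 motifs searched, and the third held an NF-kB match 225 to 216 bases before its start. In the printed Nfkb2 window, chr19:46304487-46304736 on the plus strand, capitals mark matches to the 2 motifs it holds of the 4 searched. The run next to the start, 11 to 2 bases before it, matches the NF-kB motif, spelled as GGG, any 2 bases and TTTCC. The run 148 to 140 bases before the start matches the STAT motif TTCNNNGAA. In the Hamp window, chr7:30944030-30944279 on the minus strand, capitals mark GGCGCC, the core of the BMP-responsive element, 109 to 104 bases before the start. The second run of capitals there matches the STAT motif, 97 to 89 bases before the start. In the Gp2 window, chr7:119459273-119459522 on the minus strand, capitals mark TATAAA, 32 to 27 bases before the start.
Nfkb2: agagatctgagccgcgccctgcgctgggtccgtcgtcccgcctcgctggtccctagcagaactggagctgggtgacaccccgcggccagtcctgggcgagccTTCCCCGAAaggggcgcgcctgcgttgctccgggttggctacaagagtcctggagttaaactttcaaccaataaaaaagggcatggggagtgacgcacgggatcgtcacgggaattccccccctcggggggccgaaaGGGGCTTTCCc
Hamp: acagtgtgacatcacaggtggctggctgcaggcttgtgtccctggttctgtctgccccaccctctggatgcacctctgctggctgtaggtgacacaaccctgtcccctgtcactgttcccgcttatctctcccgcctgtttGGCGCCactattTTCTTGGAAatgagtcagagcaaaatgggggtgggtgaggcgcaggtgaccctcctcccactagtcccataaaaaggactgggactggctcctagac
Gp2: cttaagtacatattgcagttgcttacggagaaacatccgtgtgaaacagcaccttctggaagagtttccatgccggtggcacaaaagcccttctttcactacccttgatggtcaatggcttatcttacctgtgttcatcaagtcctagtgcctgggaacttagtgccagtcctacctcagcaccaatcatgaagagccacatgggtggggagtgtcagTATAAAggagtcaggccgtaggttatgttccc

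Each motif was searched in all 32851 RefSeq windows of this length, on both strands. The NF-kB motif was in 1.41% of them, TTCNNNGAA in 7.02%, GGCGCC in 9.59% and TATAAA in 12.4%. Promoter windows were counted for 30 of the genes called higher on day 3 and 25 of those called lower. Windows on chromosome 18 were left out of these counts for called genes, but not out of the 32851. Among 39 windows of the higher genes, 1 held the NF-kB motif, 1 held TTCNNNGAA, 4 held GGCGCC and 5 held TATAAA. Among 28 windows of the lower genes these counts were 2, 3, 2 and 0. Both NF-kB matches on the lower side were in windows of Nfkb2. A match describes letters and not a bound site.

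Intensities were taken to log2 and quantile normalized, and every level below is a log2 intensity on that scale. Changes are day 3 minus day 1, with the standard error (SE) of the fit and limma's p, adjusted over all 19938 genes (Benjamini-Hochberg). At an adjusted p under 0.05, 37 genes were higher on day 3 (0.186% of those tested) and 33 were lower (0.166%), 70 in all (0.351%). Of these, 14 of the higher and 5 of the lower genes changed by 1 or more on the log2 scale (0.0953% of genes tested). In all 70 the 3 day 3 arrays lay on 1 side of the 3 day 1 arrays, as they did in 12% of all genes. The median change over all genes was 0.01, with quartiles of -0.09 and 0.11.

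**Figure D1:**
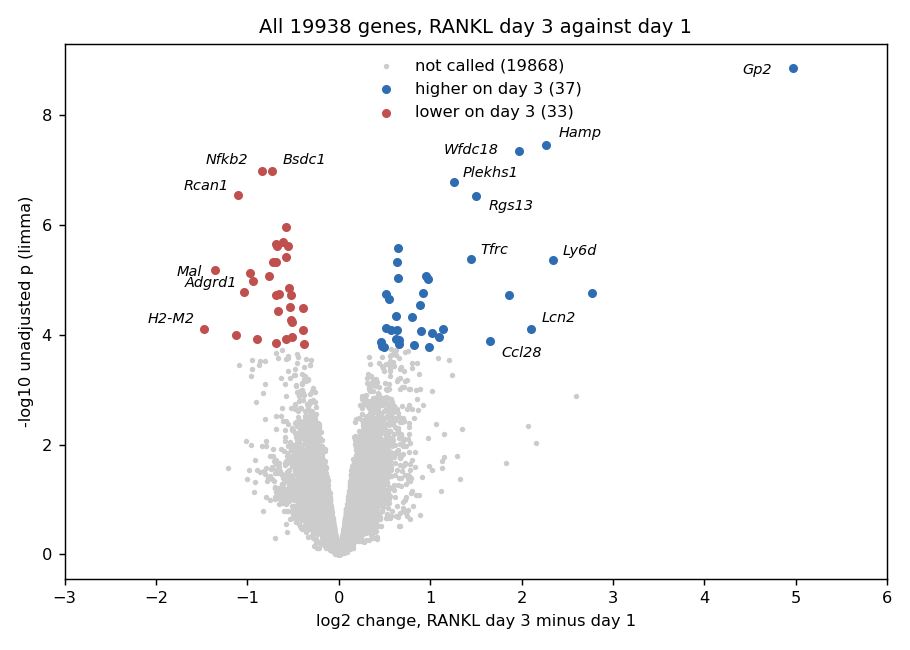
Each point is 1 of 19938 genes, with the log2 change from day 1 to day 3 on the horizontal axis and -log10 of the unadjusted limma p on the vertical axis. Blue points are the 37 genes called higher on day 3 and red points the 33 called lower. Gp2 lies apart from the other genes at a change of 4.97.

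The count of 70 uses the spread of all 15 arrays. Fitted to the 6 arrays alone, limma called 1 gene, Gp2, at an adjusted p of 0.0276. With each array only centred on its median instead of quantile normalized, 20 genes passed and 80.0% of these were higher on day 3, against 52.9% in the quantile-normalized fit. Among the genes named below, those that passed with centring were Gp2, Hamp, Ly6d, Wfdc17, Wfdc18, Tfrc, Rgs13, Dclk1, Plekhs1, C4bp, Acox2, Mgst1, Cck, Rcan1, Reep1 and the clone 1810065E05Rik. Of the 70 genes, 25 were called without each of the 6 arrays in turn, and no change of sign occurred among the 70 in any alternative. RANKL day 1 replicate 2 stood apart from the other arrays. Its deposited log2 values had an interquartile range of 1.95, against 2.26 to 2.55 on the other 14 arrays. Without it 44 genes were called. Epithelial markers were high on both days: Epcam, a surface protein of epithelial cells, averaged 11.80 on day 1 and 11.77 on day 3, and none of 17 such markers was called. Their summed linear intensity was 61608 to 67091 on day 1 and 60430 to 66084 on day 3. The RNA is from bulk epithelium, so fewer cells of a type and less RNA per cell cannot be told apart.

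Gp2 rose more than any other gene in the comparison. Its level on the 3 day 1 arrays was 5.80, 6.02 and 6.25, and on the 3 day 3 arrays 10.12, 11.49 and 11.36. The groups lay more than 3 log2 units apart. The rise was 4.97 ± 0.34 (SE), or 31.3-fold, with a limma adjusted p of 2.83e-05. The control mean was 6.04, and the means on days 2 and 4 were 9.79 and 9.36. For scale, the Y-linked genes Eif2s3y, Kdm5d and Uty read 4.88 to 5.50 on arrays where Xist, which is made in female cells, read at least 11.93. The day 1 values of Gp2 are close to that range, and a fold from such a level may be understated. Gp2 is also known from the pancreas, where it coats secretory granules. Of the other 15 pancreatic genes measured none was called, with changes of -0.13 for Ctrb1, 0.00 for Cpa1 and -0.02 for Cel, all digestive enzymes.

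Of the 21 measured genes listed for mature M cells, Gp2 and Ccl6 were called higher, none was called lower and 19 were not called. These calls were 9.52% of the list, against 0.351% of all genes tested. The lists were chosen with earlier results of these data known, so such shares describe and do not test. A change above 0 was found in 16 (10342 of all 19938 genes), and the list's median was 0.13 against 0.01 for all genes. Ccl6 encodes a chemokine for myeloid cells. It read 11.32, 11.06 and 11.39 on day 1 and 11.82, 11.91 and 11.93 on day 3, so all day 3 arrays were above all day 1 arrays by a smaller step than for Gp2. Its rise was 0.63 ± 0.09 (limma adjusted p = 0.00482), from a level that was already 11.14 in controls.

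Several M cell genes did not pass the test between the days. Ccl9, a chemokine gene of the follicle-associated epithelium, averaged 9.95 ± 0.26 (SD, n = 3) on day 1 and 10.49 ± 0.17 on day 3, against a control mean of 8.40, and its change of 0.53 had a limma adjusted p of 0.253. Tnfaip2, a gene for a protein of membrane protrusions, averaged 8.34 ± 0.45 and 8.97 ± 0.24 (limma adjusted p = 0.302). Anxa5, which encodes a phospholipid-binding annexin, averaged 11.15 ± 0.22 and 11.72 ± 0.39 (limma adjusted p = 0.305). The size of these 3 changes was near that of Ccl6 with a larger spread between arrays, and the groups of Tnfaip2 and Anxa5 overlapped. Ccl20 encodes the chemokine that draws CCR6-bearing lymphocytes. It read 10.39, 9.53 and 10.25 on day 1 and 10.22, 10.56 and 10.61 on day 3 (change 0.41, limma adjusted p = 0.441), with the low value on day 1 replicate 2. Nox1, an epithelial NADPH oxidase gene, averaged 10.33 ± 0.39 and 10.45 ± 0.39 against 7.82 in controls (limma adjusted p = 0.857). Pglyrp1, which encodes a peptidoglycan-binding protein, averaged 13.10 ± 0.07 and 12.92 ± 0.08 (limma adjusted p = 0.467). Sox8, a transcription factor gene of M cell maturation, changed by 0.14 ± 0.10, Esrrg, a nuclear receptor gene, by 0.02 ± 0.12, and Aif1, whose product takes part in bacterial uptake by M cells, by 0.23 ± 0.12. None of these changes passed the test either.

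**Figure D2:**
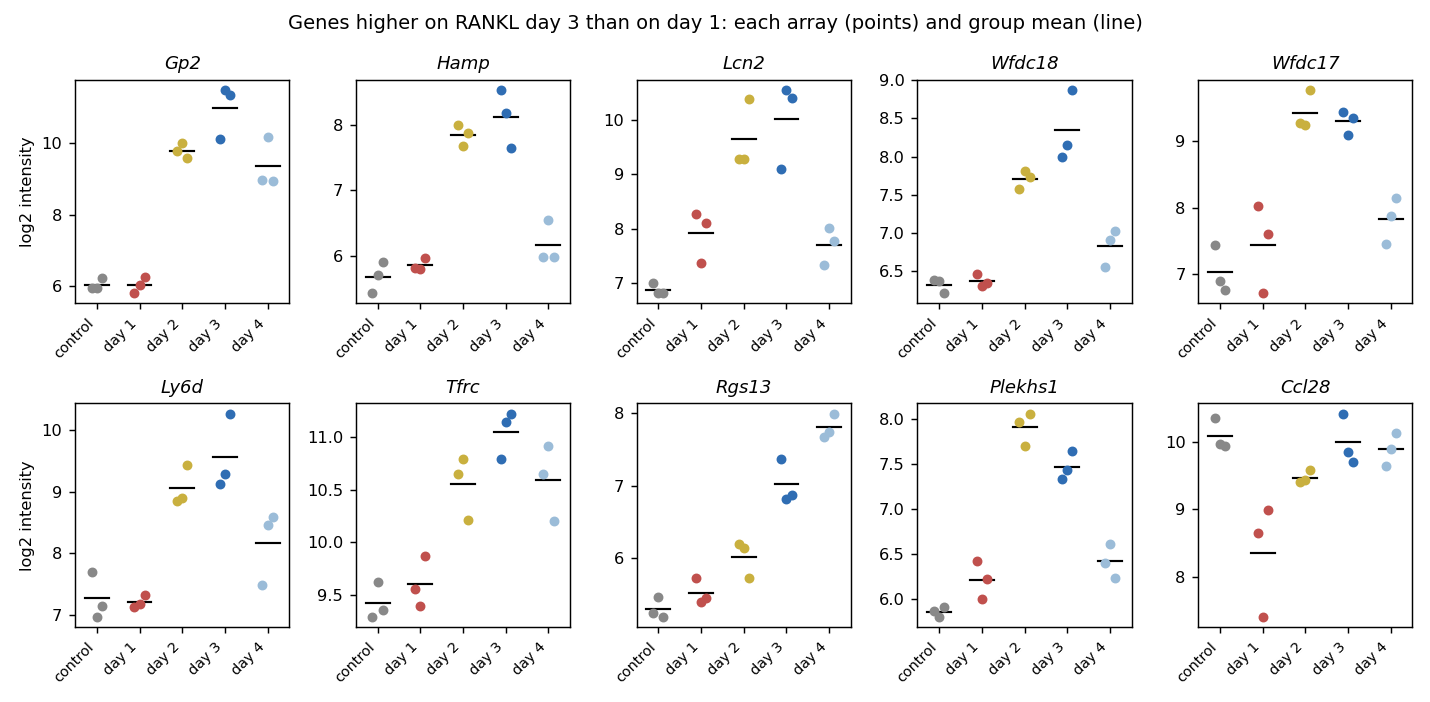
Log2 intensity of 10 genes called higher on day 3 than on day 1, with 1 point per array and a line at the mean of each group of 3, for controls and days 1 to 4 of RANKL. In each panel the 3 day 3 points lie above the 3 day 1 points, and Gp2 goes from a day 1 mean of 6.02 to a day 3 mean of 10.99.

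In the list of NF-kB pathway genes the only calls were falls. Of 25 measured members 4 were called lower (16%, against 0.351% of all genes called), none higher and 21 were not called. A change above 0 was found in 5, and the list's median was -0.32. Nfkb2 read 10.46, 10.32 and 10.42 on day 1 and 9.61, 9.52 and 9.55 on day 3. Within each day these arrays differed by less than 0.2, and the days lay well apart. The fall was -0.84 ± 0.08, or 1.79-fold, with a limma adjusted p of 0.00042, and the control mean was 8.76. Relb, the partner of p52, read 9.39, 9.43 and 9.38 on day 1 and 8.89, 8.75 and 8.88 on day 3 (-0.56 ± 0.07, limma adjusted p = 0.00377). Its day 3 mean of 8.84 stands beside a control mean of 8.97.

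Icam1, an adhesion molecule gene and NF-kB target, fell from 9.51, 9.80 and 9.59 to 8.84, 8.91 and 9.07 (-0.69 ± 0.09, limma adjusted p = 0.00482). Traf2, which encodes an adaptor of TNF-family receptors, fell from 8.91, 9.10 and 8.91 to 8.42, 8.48 and 8.40 (-0.54 ± 0.08, limma adjusted p = 0.0103). Neither gene's groups overlapped. Without day 3 replicate 3 the adjusted p of Traf2 was 0.0644. Bcl3, an IkB-family partner of p50 and p52, missed the test at -0.59 ± 0.14 (limma adjusted p = 0.1). The receptor gene Tnfrsf11a averaged 10.33 ± 0.12 on day 1 and 9.97 ± 0.25 on day 3 against 9.55 in controls, and its change of -0.35 did not pass the test (limma adjusted p = 0.218). With each array centred on its median, none of the 4 falls was called and the list's median was -0.17. With the values as deposited, 3 of the 4 were called, without Relb, and the median was -0.24.

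The early M cell genes were split. Of 19 measured members 4 were called lower on day 3 (21.1%, against 0.351% of all genes called) and none was called higher. The list's median was -0.06, which turned to 0.06 with each array centred on its median. H2-M2, a nonclassical MHC class I gene, had the largest fall of all called genes. It read 11.28, 11.70 and 11.08 on day 1 and 10.03, 10.29 and 9.31 on day 3, with day 3 replicate 3 the lowest. The fall was -1.48 ± 0.27, or 2.79-fold (limma adjusted p = 0.0321), and the day 3 mean of 9.88 stands beside a control mean of 6.57. The call of H2-M2 was lost without day 1 replicate 1 (0.0703), day 1 replicate 2 (0.127), day 3 replicate 1 (0.0697) or day 3 replicate 3 (0.126).

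Adgrd1, an adhesion G-protein-coupled receptor gene, read 11.86, 12.03 and 12.03 on day 1 and 10.87, 11.19 and 10.96 on day 3 (-0.97 ± 0.14, limma adjusted p = 0.0067). Cxcl16 encodes a membrane-bound chemokine that also acts as a scavenger receptor. Its day 1 values of 10.16, 10.17 and 10.13 and day 3 values of 9.52, 9.48 and 9.42 were tight within each day (-0.69 ± 0.11, limma adjusted p = 0.0105), and without day 3 replicate 3 the adjusted p was 0.0715. Marcksl1, which encodes an actin-binding substrate of protein kinase C, fell by 0.89 on the log2 scale, from 10.66 ± 0.11 (SD, n = 3) to 9.77 ± 0.08 (limma adjusted p = 0.0402). Its call was lost without any 1 of the 6 arrays, at 0.0657 to 0.146. Spib read 11.58, 10.98 and 11.09 on day 1 and 10.18, 10.60 and 10.39 on day 3. The groups did not overlap, and the change of -0.83 ± 0.20 did not pass the test (limma adjusted p = 0.121). Its control mean was 6.65 and its day 4 mean 9.11.

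**Figure D3:**
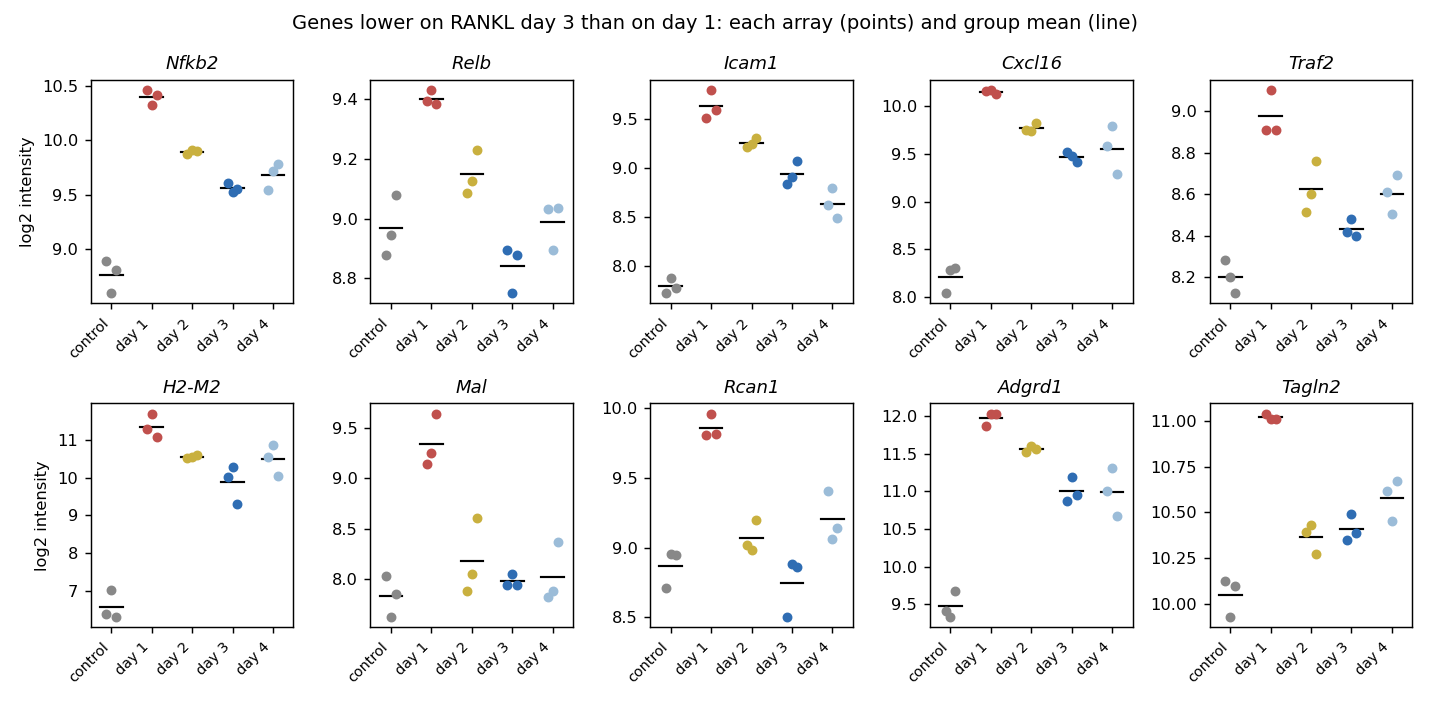
Log2 intensity of 10 genes called lower on day 3 than on day 1, with 1 point per array and a line at the mean of each group of 3, for controls and days 1 to 4 of RANKL. In each panel the 3 day 3 points lie below the 3 day 1 points, and Nfkb2 goes from a day 1 mean of 10.40 to a day 3 mean of 9.56.

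In a list for the cytoskeleton and membrane traffic of M cells, the called genes all fell. Mal, which encodes a raft protein of apical membrane transport, read 9.14, 9.24 and 9.64 on day 1 and 7.95, 8.06 and 7.94 on day 3 (-1.36 ± 0.19, limma adjusted p = 0.00637), with a control mean of 7.84. Rcan1, which encodes a regulator of the phosphatase calcineurin, read 9.80, 9.96 and 9.81 and then 8.50, 8.88 and 8.86 (-1.11 ± 0.12, limma adjusted p = 0.000734), with a control mean of 8.87. Tagln2, an actin-binding protein gene, was at 11.04, 11.01 and 11.01 and then at 10.35, 10.49 and 10.39 (-0.61 ± 0.08, limma adjusted p = 0.00377), and its control mean of 10.05 was lower than both. These 3 and Marcksl1 were the called members among the 30 measured genes of that list (13.3%, against 0.351% of all genes). All 4 were lower, while the list's median was -0.01. Kdelr3, a gene of return traffic to the endoplasmic reticulum outside the list, was called higher and is given below.

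Other large falls lay outside these groups. Lama3, a chain of the epithelial laminin, fell by 1.03 on the log2 scale from a day 1 mean of 9.01 ± 0.04 (SD, n = 3) to 7.98 ± 0.37 on day 3, with a control mean of 8.55. Its limma adjusted p was 0.0105, and it was 0.0512 without day 3 replicate 2 and 0.0715 without day 3 replicate 3. Treml4, of the family of receptors expressed on myeloid cells, changed by -0.94 ± 0.14, and Reep1, whose product shapes the endoplasmic reticulum, by -0.76 ± 0.11. Bsdc1, a gene of little-known role, went from 10.78, 10.80 and 10.88 to 10.13, 10.13 and 10.00 (-0.73 ± 0.07, limma adjusted p = 0.00042). Hsd3b7, which encodes an enzyme of bile acid synthesis, changed by -0.72 ± 0.10, and Ank, a gene of pyrophosphate and ATP export, by -0.69 ± 0.13. Acot6, an acyl-CoA thioesterase gene, changed by -1.12 ± 0.21 at a limma adjusted p of 0.0369, and that call was lost without any 1 of the 6 arrays, at 0.0534 to 0.122. Ank lost its call without any array but day 1 replicate 1, at 0.0717 to 0.183. The call of Treml4 was lost without day 3 replicate 3 (0.0563).

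Antimicrobial genes were among the largest rises. Of 27 measured members 4 were called higher (14.8%, against 0.351% of all genes called) and none lower. A change above 0 was found in 21, and the median was 0.16. With the values as deposited 17 were above 0 and the median was 0.04. Wfdc18 and Wfdc17 encode small secreted proteins of the whey acidic protein family, and mouse Wfdc17 is known from macrophages as an anti-inflammatory peptide. Wfdc18 averaged 6.37 ± 0.08 (SD, n = 3) on day 1 and 8.34 ± 0.47 on day 3 (change 1.97 ± 0.18, limma adjusted p = 0.000297). Wfdc17 read 8.02, 6.71 and 7.60 and then 9.45, 9.10 and 9.36 (1.86 ± 0.29, limma adjusted p = 0.0105). The day 1 arrays of Wfdc17 were spread over more than 1 log2 unit and its day 3 arrays were close together. Its adjusted p was 0.0504 without day 3 replicate 1 and 0.0663 without day 3 replicate 3. By day 4 the means were 6.83 for Wfdc18 and 7.82 for Wfdc17.

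The remaining antimicrobial calls, Lcn2 and Hamp, are also genes of iron handling. Lcn2 encodes lipocalin-2, which binds bacterial siderophores. It read 8.27, 7.36 and 8.10 on day 1 and 9.09, 10.55 and 10.40 on day 3 (2.10 ± 0.38, limma adjusted p = 0.0321). The lowest day 3 array was above the highest day 1 array by less than 1 log2 unit. Its call was lost without day 1 replicate 1 (0.0511), day 1 replicate 2 (0.126), day 3 replicate 2 (0.105) or day 3 replicate 3 (0.159).

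Hamp read 5.82, 5.80 and 5.97 on day 1 and 8.54, 8.19 and 7.65 on day 3, a rise of 2.27 ± 0.20 or 4.81-fold (limma adjusted p = 0.000297). Day 1 and control values lay together near the background level, with a control mean of 5.68, so the fold may be understated. The mean was 7.85 on day 2 and 6.17 on day 4. Hepcidin is best known from the liver, where it makes cells degrade the iron exporter ferroportin, and where BMP6 raises its transcription. Bmp6 fell in this comparison, from 9.06, 8.87 and 8.87 to 8.19, 8.23 and 8.31 (-0.69 ± 0.09, limma adjusted p = 0.00377), and its control mean was 7.49.

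Tfrc, the transferrin receptor gene through which cells take up iron, read 9.55, 9.40 and 9.87 on day 1 and 10.79, 11.14 and 11.22 on day 3. The rise was 1.45 ± 0.20, or 2.72-fold (limma adjusted p = 0.00482), from a level near the control mean of 9.42. Tfrc, Lcn2 and Hamp were the 3 called members among 20 measured genes of iron handling (15%, against 0.351% of all genes). The list's median was 0.11, and 0.19 with each array centred on its median. The ferroportin gene Slc40a1 averaged 6.55 ± 0.37 on day 1 and 6.88 ± 0.63 on day 3, with overlapping groups, against 8.65 in controls. Slc11a2, the importer of iron across the brush border, changed by 0.36 ± 0.11 without passing the test (limma adjusted p = 0.229), and Cybrd1, its ferric reductase, by -0.05 ± 0.09.

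Ly6d, which encodes a lipid-anchored surface protein of the Ly6 family, had the largest rise after Gp2 among called genes other than unnamed clones. It read 7.13, 7.19 and 7.32 on day 1 and 9.13, 9.28 and 10.26 on day 3 (2.35 ± 0.32, limma adjusted p = 0.00482). Plekhs1, a gene for a protein with a pleckstrin homology domain, averaged 6.22 ± 0.21 (SD, n = 3) and then 7.47 ± 0.16 (change 1.26 ± 0.13, limma adjusted p = 0.000556). C4bp encodes a soluble inhibitor of complement and changed by 0.98 ± 0.14 (limma adjusted p = 0.00759, and 0.0558 without day 3 replicate 3). In all 3 genes the days did not overlap. The day 4 means, 8.17 for Ly6d, 6.42 for Plekhs1 and 7.56 for C4bp, were below the day 3 means of 9.56, 7.47 and 8.40.

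Markers of tuft cells, the chemosensory cells of the epithelium, included 2 called genes among 23 measured, both higher, with a median of 0.19. The 2 calls were 8.7% of the list, against 0.351% of all genes. Rgs13, which encodes a regulator of G-protein signalling, read 5.72, 5.39 and 5.44 on day 1 and 7.37, 6.82 and 6.87 on day 3 (1.50 ± 0.16, limma adjusted p = 0.000734). Its day 1 values reached down to the background level, and its day 4 mean was 7.80. Dclk1, a kinase gene used to mark tuft cells, read 6.67, 6.48 and 6.67 and then 7.46, 7.17 and 7.13 (0.64 ± 0.09, limma adjusted p = 0.00746), with a day 4 mean of 7.71. For both genes every day 3 array was above every day 1 array. Trpm5, the cation channel of tuft cell signalling, averaged 7.44 ± 0.35 on day 1 and 8.21 ± 0.33 on day 3 and missed the test (limma adjusted p = 0.111). Pou2f3, the transcription factor gene tuft cells depend on, changed by 0.06 ± 0.12. The summed linear intensity of the 23 markers was 7616 to 9687 on day 1 and 8043 to 8743 on day 3, and it contains Spib.

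Enteroendocrine cells secrete gut hormones, and 3 of their 28 measured genes were called, all higher, with a median of 0.15. The 3 calls were 10.7% of the list, against 0.351% of all genes. Gcg, which encodes proglucagon and thereby GLP-1, read 10.30, 9.68 and 10.29 on day 1 and 11.45, 10.87 and 10.99 on day 3 (1.01 ± 0.18, limma adjusted p = 0.0342). Cck, the cholecystokinin gene, read 7.67, 7.33 and 7.73 and then 8.27, 8.35 and 8.50 (0.80 ± 0.14, limma adjusted p = 0.0219). In both the lowest day 1 value came from replicate 2, and the groups did not overlap. Rfx6, a transcription factor gene of this lineage, changed by 0.65 ± 0.13 (limma adjusted p = 0.0449). Without day 1 replicate 2 the adjusted p was 0.11 for Gcg, 0.0857 for Cck and 0.168 for Rfx6. The calls were also lost without day 3 replicate 1 for Gcg (0.112), without day 3 replicate 2 for Cck (0.0659), and without day 3 replicate 3 for Gcg (0.0933) and Cck (0.126). Rfx6 lost its call without any array but day 1 replicate 1. The summed intensity of the list was 8577 to 9260 on day 1 and 9740 to 12510 on day 3. Day 4 means were 11.51 for Gcg and 8.95 for Cck.

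Another set of rises started from a day 1 level below the control level. Ccl28, a mucosal chemokine gene whose product attracts IgA-secreting plasma cells, read 8.65, 7.40 and 8.99 on day 1 and 10.43, 9.86 and 9.71 on day 3, with a control mean of 10.10. The rise was 1.66 ± 0.31 (limma adjusted p = 0.0419), and the call was lost without day 1 replicate 1 (0.0597), day 3 replicate 1 (0.137), day 3 replicate 2 (0.09) or day 3 replicate 3 (0.0914). Ces1f, a carboxylesterase gene, averaged 9.88 ± 0.38 on day 1, 10.97 ± 0.32 on day 3 and 10.83 in controls (limma adjusted p = 0.0391). Its call was lost without day 1 replicate 1 (0.067), day 1 replicate 2 (0.124), day 3 replicate 2 (0.104) or day 3 replicate 3 (0.183). Acox2, which encodes a peroxisomal oxidase of branched-chain and bile acid intermediates, read 7.90, 8.22 and 8.35 and then 9.09, 9.11 and 9.11 (0.95 ± 0.14, limma adjusted p = 0.00723), with a control mean of 8.72. Its 3 day 3 arrays agree closely and lie above all day 1 arrays.

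A further 2 genes of this kind were picked after their values were seen. The unnamed clone 1810065E05Rik read 7.41, 5.85 and 7.41 on day 1 and 10.48, 8.90 and 9.61 on day 3, with a control mean of 11.09 (2.77 ± 0.43, limma adjusted p = 0.0105, and 0.0563 without day 3 replicate 3). Mgst1, a microsomal glutathione transferase gene, averaged 10.12 ± 0.12 on day 1, 11.04 ± 0.19 on day 3 and 11.27 in controls (limma adjusted p = 0.0105, and 0.0535 without day 3 replicate 2). All 5 genes were grouped here because their day 1 means were under their control means. All 3 day 3 arrays of each were above all 3 day 1 arrays, as in all 37 genes called higher.

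Among 27 measured chemokine genes Ccl28 and Ccl6 were higher and Cxcl16 was lower, with a median of 0.01, which was -0.09 with the values as deposited. In the list of 23 stem cell genes, Aqp4, an aquaporin gene, was called higher at 0.63 ± 0.12 (limma adjusted p = 0.0402), which was lost without any array but day 3 replicate 1. Kdelr3, whose product returns proteins to the endoplasmic reticulum, changed by 0.99 ± 0.19 at a limma adjusted p of 0.0486, and its call held only without day 1 replicate 3. Csf1r, the receptor gene of macrophage growth factor, was the only call among 27 myeloid genes (0.52 ± 0.09, limma adjusted p = 0.0321). Its call was lost without day 1 replicate 1 (0.0917), day 1 replicate 2 (0.073), day 3 replicate 1 (0.108) or day 3 replicate 3 (0.0924). Calls made up 11.1% of the chemokine list, 4.35% of the stem cell list and 3.7% of the myeloid list, against 0.351% of all genes.

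The markers of myeloid, stromal, T, B and red cells gave no other call by limma. The summed intensity of the 27 myeloid genes was 5098 to 5476 on day 1 and 5491 to 6837 on day 3, and their median change was 0.15, or 0.06 with the values as deposited. For 23 stromal, endothelial and smooth muscle genes the sums were 3475 to 4371 on day 1 and 4426 to 5266 on day 3, and the median was 0.11, or 0.01 with the values as deposited. Both ranges lay higher on day 3 without overlap, and their part in the results above was not tested. This was not particular to these lists. The sums also lay apart for chemokines (19212 to 20381, then 20756 to 21186) and stem cell genes (12296 to 14191, then 15225 to 16887). Mature M cell, antimicrobial, enteroendocrine, endoplasmic reticulum and oxidative phosphorylation lists also had higher sums on day 3 without overlap. So did the pancreas list, which contains Gp2. For the NF-kB and early M cell lists the sums lay apart and were lower on day 3. In the remaining lists they overlapped. For 27 genes of intraepithelial T cells the sums were 10221 to 12068 on day 1 and 10659 to 15062 on day 3, with Gzmb, a cytotoxic granule protease gene, at 1.06 (limma adjusted p = 0.198) and Cd3e, a subunit of the T cell receptor complex, at -0.28. Microarray background makes no marker read 0, so absence of a cell type was not read from these values.

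**Figure D4:**
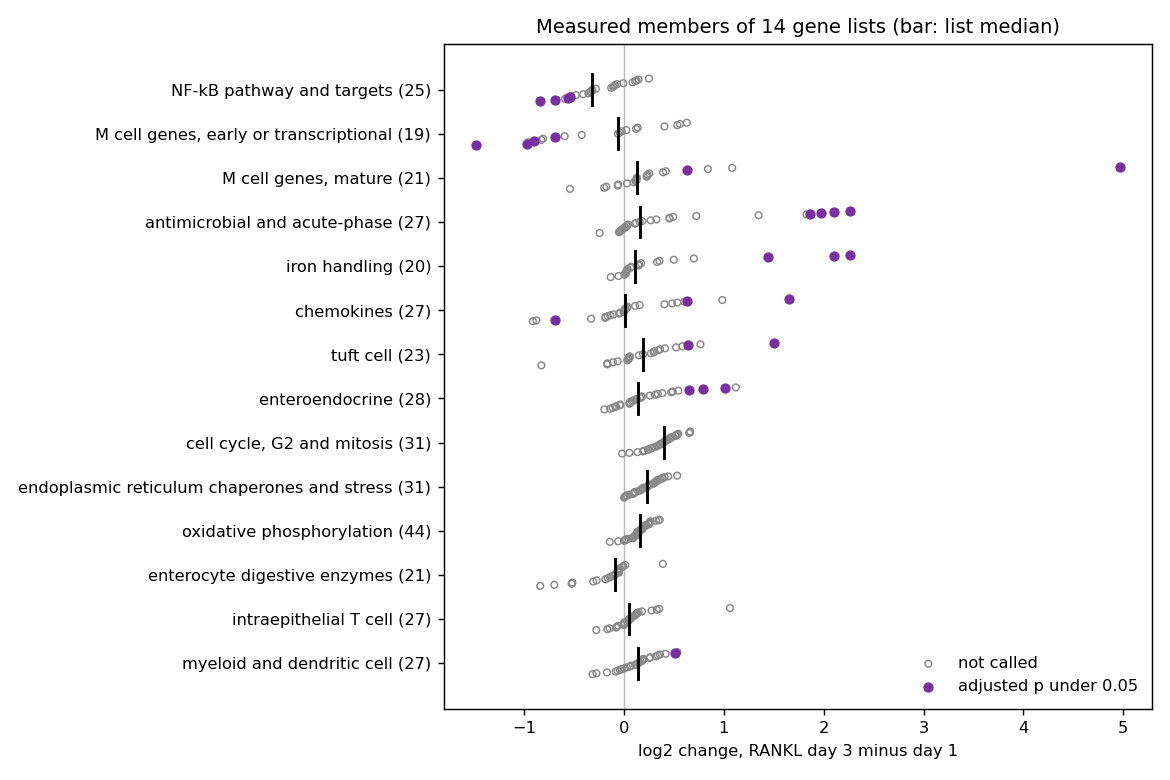
Each point is the log2 change from day 1 to day 3 of 1 measured gene in 14 gene lists, with the number measured in brackets. Filled purple points are genes with an adjusted p under 0.05, and the black bar is the list's median, which runs from -0.32 for NF-kB to 0.40 for the G2 and mitosis genes, where no single gene was called.

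A few lists leaned to 1 side without any member passing the test, and these are descriptions only. Over all 19938 genes, 10342 had a change above 0 and 2409 had an unadjusted limma p under 0.05. Of 31 measured genes of G2 and mitosis 30 had a change above 0 and none was called by limma, with a median of 0.40 and 6 members at an unadjusted p under 0.05. Mki67, the proliferation antigen, changed by 0.52 (limma adjusted p = 0.41), and Racgap1, a cytokinesis gene, by 0.66 (limma adjusted p = 0.33). The list's median was 0.23 without day 1 replicate 2, 0.56 without day 1 replicate 1 and 0.26 without day 3 replicate 3. All 31 genes of endoplasmic reticulum chaperones and stress had a change above 0, with a median of 0.24, no call and 11 members at an unadjusted p under 0.05. Pdia6, a disulphide isomerase gene, read 9.66, 9.36 and 9.64 and then 9.98, 9.91 and 10.38 (limma adjusted p = 0.134). With each array centred the median was 0.40, and with 1 array left out 26 to 30 members were above 0, the fewest without day 1 replicate 1. Of 44 genes of oxidative phosphorylation 42 were above 0 and 17 had an unadjusted p under 0.05, none was called, and the median was 0.16, which was 0.31 with each array centred on its median. The 21 enterocyte digestive enzymes had 2 members above 0, 2 at an unadjusted p under 0.05, no call and a median of -0.09. Their share at that p was below the share over all genes. Without day 1 replicate 2 12 members were above 0 and the median was 0.01.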

How the data were processed

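The deposited values were linear intensities, one per probe set and array, from 25.95 to 24106.7 over 28853 probe sets. Per the submitters' processing notes the build was mm9. How probes were summarised and normalized is not given in the sources used here. The labels' protocols name EDTA detachment and biotinylation with the WT Terminal Labeling Kit.

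Groups came from the labels. Values were taken to log2 with an offset of 0, and since the array medians spanned 0.18 (limit 0.1) they were quantile normalized. The annotation gave 1 symbol to 21789 probe sets, several to 1621 and none to 5443. Each of 19938 genes was read from its brightest probe set by mean over 15 arrays, which mattered for 999 genes. Gene IDs of 19856 were matched to RefSeq. No filter on dim genes was used. A limma 3.58.1 model (R 4.3.3) held 1 mean per group, no block and all 15 arrays (10 residual and 3.49 prior degrees of freedom), and day 3 minus day 1 was tested two-sided.

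Named were the 15 largest called rises and falls without overlap between days and without unnamed clones, up to 4 called members of each of 38 lists, and a fixed set of M cell, NF-kB and iron genes. Genes that repeated a point could be omitted. The comparison, the lists and these genes were chosen with earlier results of these data known. The 38 lists held 1049 symbols, of which 950 were measured, and the lists without a call that are not described were brush border, fat absorption, fatty acid oxidation, lipid synthesis, transporters, interferon, clock, immediate early, heat shock, ribosomal, Notch, inflammasome, Paneth, B cell and red cell genes, with medians from -0.15 to 0.13, and S phase genes at 0.16. Goblet, xenobiotic and MHC genes had 1 call each, Ccl28, Ces1f and H2-M2. The alternatives were an offset of 16, 2 other scalings, a fit without the dimmest 40%, the mean of a gene's probe sets, another prior, array weights, a replicate block, fits of fewer groups, and each of the 6 arrays left out. The method was tested on simulated data in which a gene had the same independent noise on every array. No simulated array stood apart as day 1 replicate 2 did, so that test says little about single calls. Replicate numbers were not taken to pair the samples, and whether they do is not known. The same-numbered deviations correlated at -0.042, 0.232 and 0.22, and the differently numbered ones at -0.432 to 0.255. So few pairs cannot decide it. The number of arrays limits the precision.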

Additional observations from a re-analysis of the deposited data

How the results depend on the processing

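The 70 calls, 37 higher and 33 lower, with 19 at a change of 1 or more, were recomputed under 16 alternatives, and no called gene changed sign in any of them. Values as deposited gave 38 calls, 23 higher and 15 lower, and 37 of the 70 genes stayed called. Centring each array on its median gave 20, with 16 higher, 4 lower and 11 at a change of 1 or more, and 19 of the 70 stayed called. Array weights gave 547, with 277 higher and 270 lower, in an iteration that stopped before convergence. The replicate block gave 111, with 60 higher and 51 lower, and whether the numbers pair the samples is not known. The 6 arrays alone gave 1 higher (Gp2), 0 lower and 1 at a change of 1 or more. In that limma fit 1327 genes had an unadjusted p under 0.05 in either direction, and 507 of these were lower. In the 15-array fit these counts were 2409 and 995 of 19938 genes. The 12 RANKL arrays without controls gave 53, with 24 higher. Leaving out 1 array gave 31 to 103 calls, 16 to 58 higher, 15 to 45 lower and 10 to 25 at a change of 1 or more. The lowest counts came without day 3 replicate 3 and the highest without day 1 replicate 3, and without day 1 replicate 2 there were 44. The cause of these differences was not tested. The other settings kept the counts within 1.5 times. Gp2 alone was called under every alternative. Of the genes called, 6 changed by less than 0.5 on the log2 scale, and the median standard error was 0.102. Nfib, picked after its values were seen, fell by 0.58 on the log2 scale on its brighter probe set and by 0.15 on the other.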

Other observations

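Several genes not described above had large changes that did not pass the test, and they were picked after their values were seen. Psg18, of the pregnancy-specific glycoprotein family, changed by 1.08 (limma adjusted p = 0.0599). Plet1, a surface protein gene of epithelial progenitors, changed by 2.59 (limma adjusted p = 0.129), and Il18, an epithelial cytokine gene, by 1.24 (limma adjusted p = 0.0838). On the lower side Cd44, a hyaluronan receptor gene, changed by -0.81 (limma adjusted p = 0.0627), and the interferon-induced chemokine gene Cxcl10 by -0.88 (limma adjusted p = 0.066).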
